A study of Mus musculus with 12 samples.

Results

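Small RNAs of the mouse testis were compared with those of the cauda epididymidis, the last segment of the epididymis, separately in Gpx5 KO and in WT mice. The comparison used 4 of the 12 samples of the series, which are the testis KO, testis WT, cauda KO and cauda WT small RNA libraries. Each library was made from the pooled tissue of 7 C57BL/6 mice aged 13 months, KO mice being Gpx5-/-, and the labels name no agent given to either genotype. Gpx5 encodes a glutathione peroxidase secreted by the epididymal epithelium. Testes went straight to RNA extraction, whereas caudae were first punctured with a needle and kept for 15 min at 37 °C in PBS so that sperm could leave. RNA of 18 to 40 nt was sequenced on 1 of 2 Illumina instrument types, without a record of the type for each library, so tissue, handling and instrument cannot be told apart.

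Every sequence was taken under the class and entry to which the authors had matched it. Of 923 miRNA names, 170 reached at least 100 reads per 1000000 miRNA reads (RPM) in at least 1 of the 4 libraries and were compared. Of the other classes, 5839 entries reached at least 20 RPM of classified reads and were compared. A feature was called higher or lower in testis when the testis over cauda ratio was at least 2-fold in the same direction in KO and in WT and each 95% interval excluded 1. With 1 pooled library per tissue and genotype there is no replicate and no test, and the intervals cover counting error only. Tissue samples mix many cell types, so fewer cells of a type and less RNA per cell cannot be told apart.

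Small RNAs fall into families with different makers. piRNAs are made in male germ cells, where they guide PIWI proteins to silence transposons and, in meiotic and postmeiotic cells, arise in large numbers from long noncoding precursors. They are longer than miRNAs and mostly begin with uridine, which is read as T. miRNAs are cut by Dicer in nearly all cells and select their targets mainly through the seed, bases 2 to 8 from the 5′ end. tRNA fragments that run from the 5′ end of a tRNA into the anticodon loop are a known major small RNA of the epididymis and of maturing sperm, while sperm leaving the testis are rich in piRNAs.

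Mature sequences of miRNAs that share a seed or a cluster and were called in the same direction are shown first, with the seed in capitals. The first group, all higher in testis, holds the miR-34/449 seed and seeds of an X-linked cluster that is active in spermatogenic cells. The second group, all lower in testis, holds the miR-10, miR-196 and miR-200 families, which are known from Hox clusters and from epithelia.
miR-34b-5p: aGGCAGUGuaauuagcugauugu
miR-449a-5p: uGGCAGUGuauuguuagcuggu
miR-465b-5p: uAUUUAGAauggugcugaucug
miR-465c-5p: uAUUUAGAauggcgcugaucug
miR-743a-3p: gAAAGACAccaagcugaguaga
miR-743b-3p: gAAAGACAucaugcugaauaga
miR-880-3p: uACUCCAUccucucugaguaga
miR-881-3p: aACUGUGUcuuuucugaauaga
miR-10a-5p: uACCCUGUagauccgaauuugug
miR-10b-5p: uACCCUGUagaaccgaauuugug
miR-196a-5p: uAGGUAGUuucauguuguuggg
miR-196b-5p: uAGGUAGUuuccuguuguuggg
miR-200a-3p: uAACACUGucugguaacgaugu
miR-141-3p: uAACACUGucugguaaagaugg
miR-200b-3p: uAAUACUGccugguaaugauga
miR-200c-3p: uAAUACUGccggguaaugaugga
miR-429-3p: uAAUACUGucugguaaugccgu

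In the RefSeq annotation of GRCm38.p6, miR-34b-5p lies at chr9:51103610-51103632 on the minus strand and miR-449a-5p at chr13:113037549-113037570 on the plus strand. The X-linked members lie close together on the minus strand of the X chromosome, from miR-743a-3p at chrX:66776760-66776781 over miR-880-3p at chrX:66800540-66800561 and miR-881-3p at chrX:66801954-66801975 to miR-465b-5p at chrX:66835811-66835832. miR-10a-5p lies at chr11:96317186-96317208 and miR-10b-5p at chr2:74726074-74726096, both on the plus strand. miR-141-3p and miR-200c-3p share a locus on chromosome 6, at chr6:124717917-124717938 and chr6:124718324-124718346. miR-200a-3p, miR-200b-3p and miR-429-3p share one on chromosome 4, where miR-200a-3p lies at chr4:156054911-156054932. Each of these is a miRNA gene in the annotation, and a mature sequence was found for 151 of the 170 compared names.

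The leading tRNA fragment sequences of the cauda libraries are shown as DNA letters from the 5′ end, and in the 30-nt glycine form the capitals mark the bases that the 18-nt form lacks. The leading Y RNA sequence, also much lower in testis, is shown last.
tRNA-Gly 18 nt: gcattggtggttcagtgg
tRNA-Gly 30 nt: gcattggtggttcagtggTAGAATTCTCGC
tRNA-Val 33 nt: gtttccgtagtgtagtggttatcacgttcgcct
tRNA-Lys 34 nt: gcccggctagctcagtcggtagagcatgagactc
tRNA-Cys 32 nt: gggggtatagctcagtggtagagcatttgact
Y RNA: ggctggtccgaaggtagtgagttatctcaa

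Testis piRNAs that matched a single place in the 300-base windows around annotated gene starts are shown as examples, with the first T in capitals. Only those windows could be searched, and 20 of 2964 such sequences had exactly 1 match, in the windows of 10 genes.
piR-4959: Taccatgtaggactcatttcagcctgga
piR-106468: Tagaatttccggtctggtcacactca
piR-134769: Taagatggaaacggaggatgctagatagt
piR-9033: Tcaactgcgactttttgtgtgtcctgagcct
piR-132663: Taaaaaaccctctgatacgggaatcctagt
piR-16175: Tgataggaaagattcagaactcctcgtact

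In GRCm38.p6, piR-4959 lies at chr5:114846678-114846705 on the minus strand, upstream of the start of the predicted gene Gm13821 and on its strand. It had 417 RPM in testis KO and 324 RPM in testis WT, against 0.524 RPM in cauda KO and 0.791 RPM in cauda WT. piR-106468 lies at chr17:27342441-27342466 on the strand of Gm10505 and had 141 and 229 RPM in testis KO and WT, against 0.262 and 0.0609 RPM in cauda KO and WT. piR-134769 at chr10:75860408-75860436 and piR-9033 at chr10:75860828-75860858 both lie on the plus strand, between the start of Mif, a minus-strand gene, and that of Gm40697. piR-132663, at chr7:73816703-73816732, lies on the opposite strand of Gm10619, whose own fragments were among the most abundant of testis. It had 194 and 132 RPM in testis KO and WT, against 0.0873 and 0.365 RPM in cauda KO and WT. piR-16175 starts 13 bases after the start of Gm21221, at chr5:149811709-149811738 on the minus strand. All 6 were at least 20 RPM in both testis libraries and under 1 RPM in both cauda libraries.

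The testis KO and WT libraries held 9834580 and 8567091 classified reads, and the cauda KO and WT libraries 11451522 and 16432212. They fell on 919815 and 824515 distinct sequences in testis KO and WT, against 194346 and 193297 in cauda KO and WT. A count of 0 allows up to 3 reads, which is between 0.183 and 0.350 RPM of classified reads. Sequences were ranked by abundance, and of the first 100 ranks 22 and 23 have no line in testis KO and WT and 18 and 21 in cauda KO and WT. An abundant miRNA sequence can thus be listed in 1 library and not in another, so miRNA ratios were also taken from reads at other first bases and from the inner 15 bases of each miRNA. The last listed rank was 3024820 and 2592016 in testis KO and WT, against 310421 and 305238 in cauda KO and WT. Most ranks of testis thus have no line, against a smaller part of those of cauda. Class shares and counts of distinct sequences describe the listed sequences alone. Gpx5 itself had 0 reads in both testis libraries and in cauda KO and 3 reads in cauda WT, too few to check the genotype labels.

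piRNA-class reads made up most of the testis libraries, and miRNA and tRNA reads most of the cauda libraries. The piRNA class took 62.8% of classified reads in testis KO and 64.1% in testis WT, against 0.914% in cauda KO and 0.591% in cauda WT. Its share was 68.7-fold higher in testis in KO (95% interval 68.3 to 69.2) and 108-fold higher in WT (108 to 109). tRNA reads took 1.46% and 1.48% in testis KO and WT, against 32.7% and 38.8% in cauda KO and WT, which is 22.3-fold lower in testis in KO and 26.2-fold lower in WT. miRNA reads took 17.3% and 17.1% in testis KO and WT, against 62.1% and 57.7% in cauda KO and WT. Of the reads that are not piRNA, the log2 testis over cauda value of miRNAs was -0.43 in KO and -0.28 in WT and that of tRNA reads -3.07 and -3.24, so by reads the miRNA share was not 2-fold lower once piRNA reads were left out of the total.

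**Figure D1:**
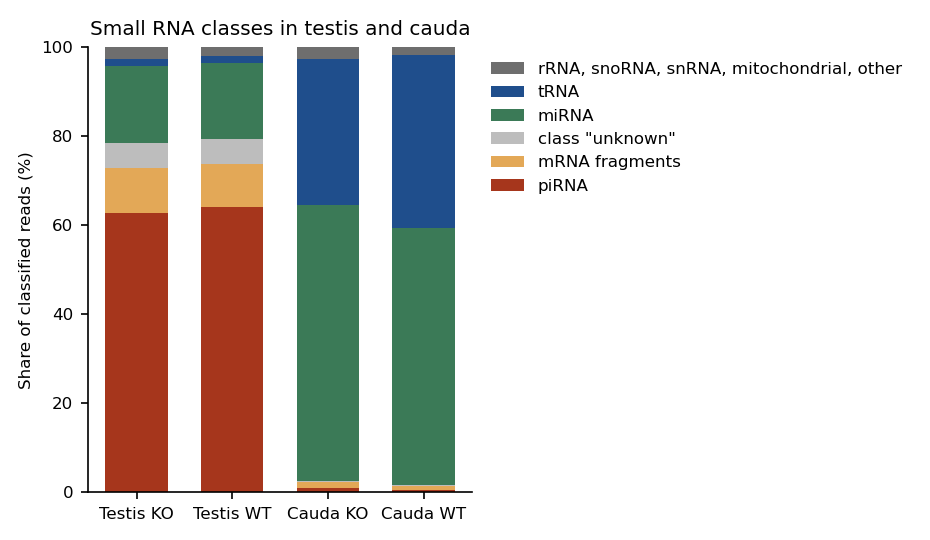
Share of classified reads, in percent, of each small RNA class in the testis KO, testis WT, cauda KO and cauda WT libraries, as stacked bars. piRNA reads fill 62.8% and 64.1% of the testis bars and under 1% of the cauda bars, where tRNA reads fill 32.7% and 38.8%.

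Of the 10 classes, 4 were at least 2-fold higher in testis in both genotypes and 2 at least 2-fold lower. Fragments of mRNA took 9.97% and 9.73% of reads in testis KO and WT, against 1.38% and 0.880% in cauda KO and WT. The class the authors named unknown, which holds many long noncoding RNAs, took 5.66% and 5.47% in testis KO and WT, against 0.218% and 0.149% in cauda KO and WT. Reads of snRNA, the RNAs of the spliceosome, took 0.272% and 0.123% in testis KO and WT, against 0.0913% and 0.0395% in cauda KO and WT. At equal depth snRNA had 3944 and 2830 distinct sequences in testis KO and WT, against 1922 and 1365 in cauda KO and WT. As a share of all distinct sequences, most of which in testis were of the piRNA and mRNA classes, its log2 testis over cauda value was -1.38 in KO and -1.75 in WT. Ribosomal RNA reads were close in share, with 1.37% and 1.009% in testis KO and WT, against 1.79% and 1.16% in cauda KO and WT.

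The piRNA class differed in kind as well as in amount. Reads of 24 to 32 nt that start with T made up 84.7% and 86.3% of the class in testis KO and WT, against 24.2% and 26.5% in cauda KO and WT. In testis the class had a single peak at 30 nt, which held 31.2% and 29.9% of its reads in KO and WT, against 10.4% and 12.2% in cauda KO and WT. Cauda had further peaks outside the piRNA range, including those at 18 nt with 11.6% and 8.31% in KO and WT, and at 22 nt with 9.82% and 13.1%. Thinned to equal depth, the piRNA class held 304562 and 310930 distinct sequences in testis KO and WT, against 14520 and 10011 in cauda KO and WT. Among all distinct sequences, without thinning, the same form made up 59.7% and 60.7% in testis KO and WT, against 51.1% and 49.997% in cauda KO and WT. At these unequal depths the tissues lay closer by sequence than by read.

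**Figure D2:**
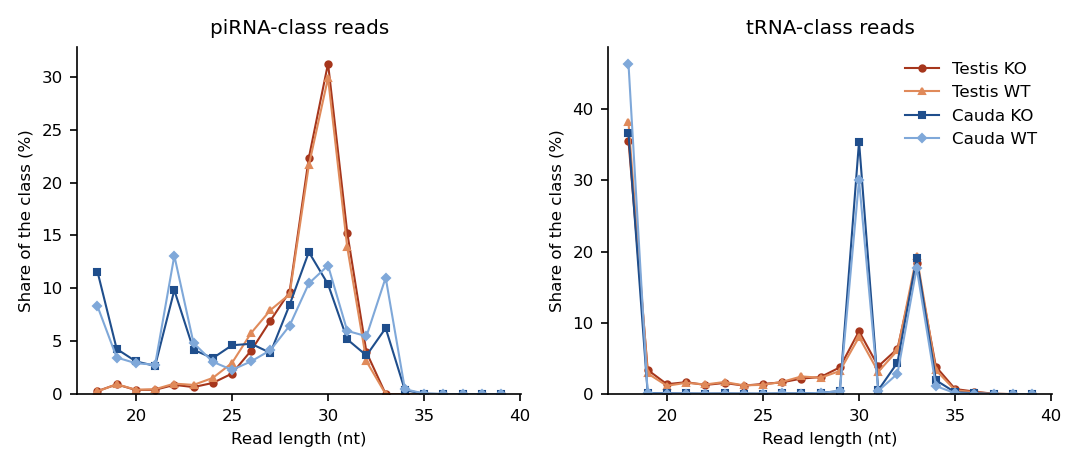
Length of piRNA-class reads (left) and tRNA-class reads (right), as percent of the reads of that class at each length in nt, with a line for each of the 4 libraries. The testis libraries peak at 30 nt in the piRNA class with 31.2% and 29.9%, and the cauda libraries have 36.7% and 46.4% of tRNA-class reads at 18 nt and 35.5% and 30.04% at 30 nt.

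In testis, 3310 piRNA-class sequences reached 20 RPM in both libraries, and 2964 of them (89.5%) had a length of 24 to 32 nt and a first T. They made up 63.7% and 61.8% of the class in KO and WT. Most were also listed in cauda, with 2397 (72.4%) in cauda KO and 2334 (70.5%) in cauda WT. Their summed level was 399945 and 396060 RPM in testis KO and WT, against 4278 and 3054 RPM in cauda KO and WT, 93.5-fold and 130-fold higher in testis. The median one of them had 50.5 and 49.6 RPM in testis KO and WT, against 0.0873 and 0.0609 RPM in cauda KO and WT, which is 1 read there. That is under the floor of 3 reads, so such a level of a single sequence cannot be told from 0. Only 5 of them in KO and 12 in WT were listed at or above their testis level in cauda.

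In cauda, only 26 piRNA-class sequences reached 20 RPM in both libraries, 18 of which were also in the testis set, and 3 of the 26 were 24 to 32 nt long with a first T. These 26 held 40.4% and 52.9% of the piRNA class in cauda KO and WT. Of the 26, 22 (84.6%) shared 16 bases with sequences that the authors listed as tRNA, rRNA, snoRNA, snRNA or other noncoding RNA, against 104 of the 3310 (3.14%) of the testis set. The most abundant piRNA entry of cauda KO, piR-1330, was not called, with 1369 and 540 RPM in testis KO and WT, against 961 and 690 RPM in cauda KO and WT. The most abundant one of cauda WT, AB351921, was lower in testis and had 11.1 and 8.05 RPM in testis KO and WT, against 702 and 775 RPM in cauda KO and WT. Nearly all of its cauda reads, 99.98% in KO and in WT, shared 16 bases with such RNAs. Of the 4970 piRNA entries compared, 4882 (98.2%) were higher in testis and 14 (0.282%) lower, and of those 14, 12 were mostly made of such sequence. Since 4930 of the 4970 passed the minimum in testis alone, these counts describe which entries were listed and support nothing further.

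Single piRNA entries reached a very wide range. piR-124724 had 914 and 735 RPM in testis KO and WT and no read in either cauda library, at least 3489-fold higher in KO and 4029-fold higher in WT against the floor of 3 reads per library. piR-138535 had 217 and 189 RPM in testis KO and WT, against 0.0873 and 0.0609 RPM in cauda KO and WT. Both were piRNA-like, with at least 93.9% of their testis reads at 24 to 32 nt with a first T. piR-100255, with 618 and 380 RPM in testis KO and WT against 0.175 and 0.122 RPM in cauda KO and WT, was not, since only 0.165% and 0.0922% of its testis reads had that form.

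Fragments of mRNAs and of unknown entries also took a larger share of the testis libraries, as given above. Of 5839 entries outside the miRNAs, 5576 (95.5%) were called higher in testis and 62 (1.06%) lower, with a median log2 ratio of 7.51 in KO and 8.11 in WT. Of these, mRNA entries gave 538 higher (90.3%) and 16 lower (2.68%) of 596, and unknown entries 111 higher (84.7%) and 5 lower (3.82%) of 131. Of these entries 539 and 112 passed the minimum in testis alone, so the counts support nothing further. In testis KO and WT, 56.0% and 60.0% of mRNA-class reads were 24 to 32 nt long with a first T, against 4.25% and 5.48% in cauda KO and WT. In the unknown class the same share was 56.4% and 62.0% in testis KO and WT, against 17.1% and 14.2% in cauda KO and WT. With reads of the same class as the total, piRNA, mRNA and unknown entries together gave 2227 higher and 133 lower in place of 5531 and 35 by their main base.

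The most abundant of the unknown entries in testis were testis noncoding RNAs, named here by gene symbol. 1700001L05Rik had 7593 and 8051 RPM in testis KO and WT, against 23.1 and 16.01 RPM in cauda KO and WT, a 328-fold and 503-fold difference. Gm10619 had 5312 and 5294 RPM in testis KO and WT, against 14.9 and 10.3 RPM in cauda KO and WT. 1700020N18Rik had 5194 and 4418 RPM in testis KO and WT, against 11.5 and 8.34 RPM in cauda KO and WT. These 3 entries differed in form: piRNA-like reads made up 67.5% and 73.7% of 1700001L05Rik reads in testis KO and WT, 35.8% and 33.4% of Gm10619 reads, and 27.9% and 38.4% of 1700020N18Rik reads. 4931408D14Rik was piRNA-like in 87.3% and 89.2% of its testis KO and WT reads, with 2096 and 2244 RPM in testis KO and WT against 5.94 and 4.63 RPM in cauda KO and WT.

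Among mRNA entries with a gene symbol, 1700006A11Rik led, with 3220 and 3032 RPM in testis KO and WT, against 9.69 and 5.05 RPM in cauda KO and WT. Fragments of Nemp1, which encodes an inner nuclear membrane protein, had 1859 and 1852 RPM in testis KO and WT, against 6.90 and 5.23 RPM in cauda KO and WT. Fragments of Ddx19b, an RNA helicase of mRNA export, had 1062 and 1084 RPM in testis KO and WT, against 3.14 and 1.95 RPM in cauda KO and WT. The piRNA-like form was common in all of them, from 69.5% of testis KO reads of Nemp1 to 81.6% of those of Ddx19b. Ago2, which encodes an Argonaute protein that carries miRNAs, gave fragments at 661 and 641 RPM in testis KO and WT, against 2.88 and 1.64 RPM in cauda KO and WT. Cdc42ep2 was unlike these: it had 374 and 294 RPM in testis KO and WT, against 0.786 and 0.243 RPM in cauda KO and WT, yet 0% and 0.0397% of its testis reads had piRNA-like form and 1 sequence gave 74.1% of its level summed over the 4 libraries.

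The 16 mRNA entries lower in testis were of 2 kinds. In 7 of them at least 50% of the cauda reads shared 16 bases with structural RNAs, among them Rab8b with 1.73 and 2.57 RPM in testis KO and WT, against 231 and 256 RPM in cauda KO and WT. Spag11b, a defensin-like gene of the epididymis, belongs here too, since 100% and 99.6% of its cauda KO and WT reads shared bases with such RNAs. Crisp1, a major secreted protein of the epididymis that binds to sperm, had no such doubt, with 1.26% of its reads in both cauda libraries. Its fragments had 0.102 and 0.117 RPM in testis KO and WT, against 27.8 and 53.0 RPM in cauda KO and WT.

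Fragments of marker genes were few. Fragments of 11 epididymal genes summed to 0.915 and 1.75 RPM in testis KO and WT, against 56.5 and 90.7 RPM in cauda KO and WT. Without reads that share bases with structural RNAs the sums were 0.712 and 0.934 RPM in testis KO and WT, against 34.1 and 61.6 RPM in cauda KO and WT, mostly Crisp1 and Adam7, and Wfdc2 and Crisp4 had no read in any library. Fragments of 6 smooth muscle genes such as Acta2 and Myh11 summed to 1.73 and 2.10 RPM in testis KO and WT, against 10.5 and 10.04 RPM in cauda KO and WT. Cnn1 of the same list went the other way, with 1.02 and 1.63 RPM in testis KO and WT, against 0.699 and 0.609 RPM in cauda KO and WT. Of the smooth muscle gene reads 23.5% and 11.1% were sense in testis KO and WT, against 97.5% and 98.2% in cauda KO and WT. Fragments of 6 Leydig cell genes summed to 6.30 and 8.29 RPM in testis KO and WT, against 0.262 and 0.304 RPM in cauda KO and WT, nearly all from Star, the cholesterol transporter of steroid synthesis. Only 27.4% and 21.1% of these testis KO and WT reads were sense, and 61.3% and 71.8% had piRNA-like form.

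Fragments of 13 germ cell genes summed to 21.1 and 20.5 RPM in testis KO and WT, against 10.2 and 6.09 RPM in cauda KO and WT, 2.07-fold and 3.38-fold higher in testis. Of these reads 38.0% and 34.7% had piRNA-like form in testis KO and WT, against 5.13% and 5% in cauda KO and WT. The genes of meiotic and early stages gave next to nothing in cauda: Ldhc, the testis lactate dehydrogenase, had 6.00 and 4.32 RPM in testis KO and WT and no read in either cauda library, and Ddx4 and Sycp3 also had none there. These last 2 were low in testis too, with Ddx4 at 0.610 and 0.584 RPM and Sycp3 at 0.712 and 0.817 RPM in KO and WT. Genes of late spermatids and sperm were listed in both tissues. Odf1, an outer dense fibre protein of the sperm tail, had 2.85 and 3.39 RPM in testis KO and WT, against 2.71 and 2.25 RPM in cauda KO and WT. Prm2, a protamine of the sperm nucleus, had 0.610 and 0.117 RPM in testis KO and WT, against 1.05 and 0.487 RPM in cauda KO and WT. Its testis WT level is 1 read, under the floor of 3 reads. What sperm left in the cauda tissue add to the cauda libraries was not tested.

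Fragments of tRNA were far less abundant in testis, and their make-up differed. Reads were taken to begin at the start of a tRNA, and given its amino acid, by 7 bases at their own 5′ end. Up to 1 mismatch was allowed, and their place on the matched entry was not used. Such reads had 10380 and 10808 RPM of classified reads in testis KO and WT, against 320287 and 383382 RPM in cauda KO and WT. They were 70.9% and 72.8% of tRNA-class reads in testis KO and WT, against 98.0% and 98.8% in cauda KO and WT. Plus-strand reads without such a start made up 20.01% and 18.3% in testis KO and WT, against 1.89% and 1.19% in cauda KO and WT. Reads opposite to the strand of the matched entry made up 11.8% and 11.5% in testis KO and WT, against 0.347% and 0.614% in cauda KO and WT. Some of these begin like the start of a tRNA and were counted in the first group. Those that do not made up 9.11% and 8.90% in testis KO and WT, against 0.0860% and 0.0520% in cauda KO and WT. This remainder was the exception in level too, with 1334 and 1320 RPM in testis KO and WT, against 281 and 202 RPM in cauda KO and WT. It was 4.75-fold and 6.54-fold higher in testis, which does not describe all opposite-strand reads.

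By amino acid, from-start fragments of 8 of 13 tRNA types were at least 2-fold lower in testis in both genotypes and 0 were higher. Glycine led in both tissues, with 5658 and 6119 RPM in testis KO and WT, against 236305 and 297966 RPM in cauda KO and WT, 41.8-fold and 48.7-fold lower in testis. Valine had 3493 and 3482 RPM in testis KO and WT, against 74779 and 75718 RPM in cauda KO and WT, 21.4-fold and 21.7-fold lower. Cysteine had 69.7 and 75.9 RPM in testis KO and WT, against 1710 and 2514 RPM in cauda KO and WT. Alanine was close in both tissues, with 155 and 117 RPM in testis KO and WT, against 131 and 124 RPM in cauda KO and WT. Histidine was lower in testis without passing 2-fold in KO, with 515 and 507 RPM in testis KO and WT, against 1021 and 2829 RPM in cauda KO and WT. With tRNA reads as the total the picture differed: 0 types were then at least 2-fold lower and 5 at least 2-fold higher.

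Within tRNA-Gly the short and the long form, shown above with the long form's extra bases in capitals, were in another balance. The exact 18-nt sequence had 3354 and 4009 RPM in testis KO and WT, against 104012 and 157851 RPM in cauda KO and WT. The exact 30-nt sequence had 483 and 462 RPM in testis KO and WT, against 104719 and 105205 RPM in cauda KO and WT. Over all glycine fragments from the start, 18-nt reads outnumbered 30-nt reads 7.93 to 1 in testis KO (95% interval 7.72 to 8.14) and 8.95 to 1 in testis WT (8.69 to 9.21). In cauda the same ratio was 1.03 in KO (1.03 to 1.04) and 1.55 in WT (1.55 to 1.56). Both testis libraries thus lay above both cauda libraries, by 30-nt reads that were 184-fold and 191-fold lower in testis and 18-nt reads that were 24.05-fold and 33.1-fold lower. An 18-nt read sits at the lower size limit of the libraries, and how the size selection bears on it was not tested.

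**Figure D3:**
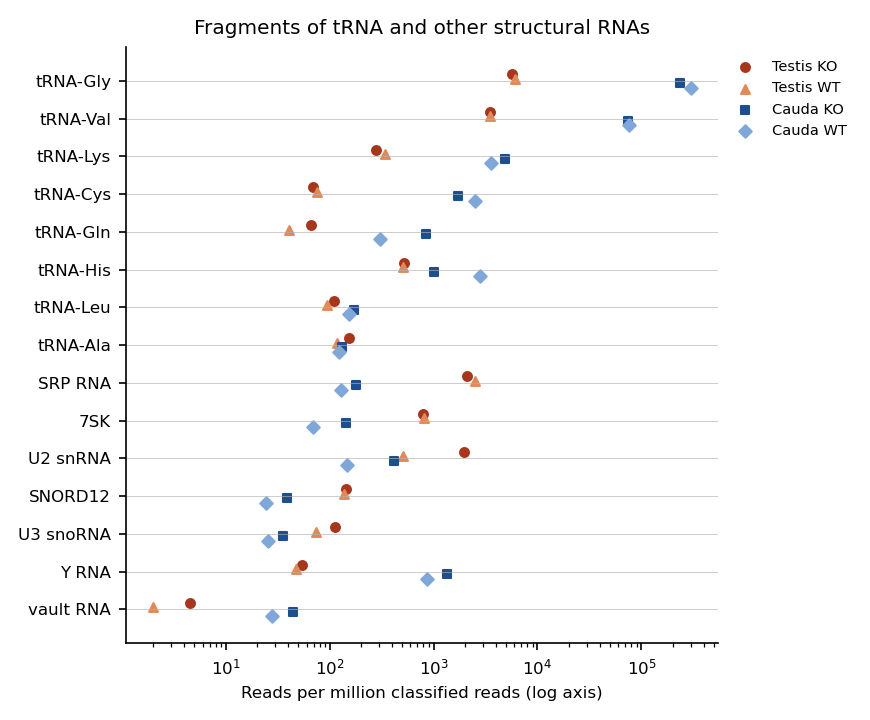
Reads per 1000000 classified reads (RPM), on a log axis, of tRNA fragments from the tRNA start by amino acid and of 7 other structural RNAs, with a point for each of the 4 libraries. Glycine fragments lie at 5658 and 6119 RPM in testis and at 236305 and 297966 RPM in cauda, alanine fragments between 117 and 155 RPM in all 4, and SRP RNA and 7SK higher in testis.

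Other structural RNAs went both ways. Of 6 other noncoding RNA entries, 4 (66.7%) were called higher in testis and 2 (33.3%) lower. Of these 6, 2 passed the minimum in testis alone and 1 in cauda alone. Y RNAs, the scaffold RNAs of Ro particles, had 54.5 and 47.2 RPM in testis KO and WT, against 1350 and 869 RPM in cauda KO and WT, 24.8-fold and 18.4-fold lower in testis. Its leading 30-nt sequence, printed above, had 17.1 and 14.2 RPM in testis KO and WT, against 621 and 242 RPM in cauda KO and WT, and the 2 annotated mouse Y RNA genes lie on chromosome 6. Vault RNA, part of the vault particle, had 4.58 and 1.98 RPM in testis KO and WT, against 44.9 and 27.7 RPM in cauda KO and WT.

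In the other direction, reads matched to the RNA of the signal recognition particle were 11.7-fold and 19.3-fold higher in testis in KO and WT. They had 2112 and 2490 RPM in testis KO and WT, against 180 and 129 RPM in cauda KO and WT. 7SK, the RNA that holds the transcription elongation factor P-TEFb inactive, had 787 and 818 RPM in testis KO and WT, against 143 and 69.2 RPM in cauda KO and WT. Part of this had piRNA-like form: 37.8% and 40.0% of the signal recognition particle reads in testis KO and WT, against 7.85% and 8.71% in cauda KO and WT. The rest of those reads was still higher in testis, at 1315 and 1493 RPM in testis KO and WT, against 166 and 118 RPM in cauda KO and WT. The match was made with up to 2 mismatches, and reads of related repeats cannot be told apart from the gene itself.

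Of 11 snRNA entries 5 (45.5%) were higher in testis and 1 (9.09%) lower, and of 60 snoRNA entries 17 (28.3%) were higher and 1 (1.67%) lower. Of the snRNA entries 3 passed the minimum in testis alone and 1 in cauda alone, and of the snoRNA entries 22 and 0. Passing in testis alone favours a higher ratio, so these counts support nothing by themselves. U2, which pairs with the intron branch point, had 1954 and 513 RPM in testis KO and WT, against 416 and 147 RPM in cauda KO and WT. The KO testis library stood apart here, with 72.4% of its U2 reads in the 24 to 32 nt form with a first T, against 42.8% in testis WT. Without reads of that form U2 had 540 and 293 RPM in testis KO and WT, against 395 and 130 RPM in cauda KO and WT, which is under 2-fold in KO. U3, the snoRNA of pre-rRNA cleavage, had 112 and 73.4 RPM in testis KO and WT, against 35.5 and 25.6 RPM in cauda KO and WT. SNORA44 was the snoRNA called lower, with 24.2 and 15.3 RPM in testis KO and WT, against 54.8 and 47.5 RPM in cauda KO and WT.

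Among the 23 rRNA entries, 11 (47.8%) were higher and 1 (4.35%) lower in testis, and 11 of the 23 passed the minimum in testis alone. The higher ones include Rps15 and Rps27a, which are ribosomal protein genes and not rRNA, with Rps27a at 89.5 and 79.4 RPM in testis KO and WT, against 0.699 and 0.487 RPM in cauda KO and WT. 5S rRNA was not called, with 2362 and 1513 RPM in testis KO and WT, against 1923 and 1440 RPM in cauda KO and WT, and neither was the small subunit rRNA. Fragments of 5.8S rRNA had 664 and 467 RPM in testis KO and WT, against 242 and 161 RPM in cauda KO and WT. Mitochondrial entries gave 3 higher (13.6%) and 14 lower (63.6%) of 22, of which 13 passed the minimum in cauda alone and 2 in testis alone, and 1 of the 3 higher is Rmrp, the nuclear RNA of RNase MRP, with 223 and 122 RPM in testis KO and WT, against 78.6 and 59.9 RPM in cauda KO and WT. Another of them, Mrps25, is a nuclear gene for a mitochondrial ribosomal protein and had 49.8 and 45.5 RPM in testis KO and WT, against 0.175 and 0.0609 RPM in cauda KO and WT. The 20 tRNA entries gave 5 higher (25%) and 8 lower (40%), the family entry that holds most tRNA reads being 25.7-fold lower in KO and 30.1-fold lower in WT. Of these 20 entries 5 passed the minimum in testis alone and 5 in cauda alone.

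Among the miRNAs, scaled to all miRNA reads, 105 of 170 (61.8%) were higher in testis in both genotypes and 16 (9.41%) lower. A further 22 were called in 1 genotype alone, 20 in neither and 7 in opposite directions. This balance depends on the scaling. The 3 most abundant names held 27.7% and 34.1% of miRNA reads in testis KO and WT, against 58.0% and 64.3% in cauda KO and WT. How much of the balance rests on them was not tested. The median log2 ratio of all 170 was 1.76 in KO and 2.17 in WT. TMM scaling, which centres the bulk of the miRNAs, lowers every log2 ratio by 1.64 in KO and 2.03 in WT, and then 55 (32.4%) were higher and 40 (23.5%) lower. Changes relative to that shift are therefore given beside the counts below. Of the 170, 74 passed the minimum in testis alone and 17 in cauda alone. Of the 79 that passed in both tissues 39 were higher and 7 lower, or 8 and 25 with TMM.

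**Figure D4:**
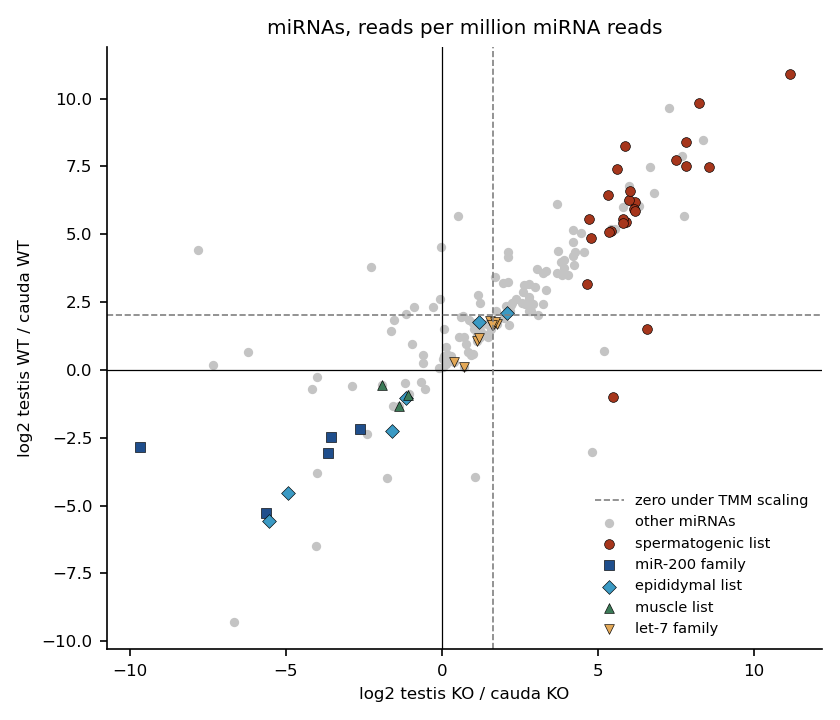
log2 testis over cauda ratio of each compared miRNA in KO (horizontal axis) and WT (vertical axis), scaled to all miRNA reads, with 5 lists in colour and dashed lines where zero lies under TMM scaling, at 1.64 and 2.03. Members of the spermatogenic list lie mostly at the upper right and those of the miR-200 family at the lower left, while let-7 members lie near the dashed lines.

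Among the lists, spermatogenic miRNAs, from the miR-34/449 family, an X-linked cluster and a few other testis loci, stood furthest above cauda. Single miRNAs outside the lists lay as far, such as miR-296-5p, 326-fold and 359-fold higher in testis in KO and WT. Together the spermatogenic list summed to 182863 and 109739 RPM of miRNA reads in testis KO and WT, against 1714 and 1380 RPM in cauda KO and WT. That is 107-fold and 79.5-fold higher in testis. Of the 24 compared members, 23 were called higher and 0 lower, and with TMM 22 were higher, against 61.8% and 32.4% of all miRNAs. The median log2 ratio was 5.93 in KO and 6.05 in WT, against 1.76 and 2.17 over all 170. Of the 24, 20 passed the minimum in testis alone, which favours a higher ratio, so the count and the median support nothing by themselves.

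miR-34c-5p, which in mice is made in meiotic and later germ cells, was among the most abundant miRNAs of testis. It had 87775 and 65609 RPM in testis KO and WT, against 393 and 361 RPM in cauda KO and WT, 224-fold higher in KO (95% interval 215 to 232) and 182-fold higher in WT (176 to 188). miR-449a-5p, which shares its seed with miR-34b-5p, had 4648 and 6108 RPM in testis KO and WT, against 25.4 and 28.7 RPM in cauda KO and WT, 183-fold and 213-fold higher. miR-34b-5p itself had 2290 and 2432 RPM in testis KO and WT, against 31.2 and 33.7 RPM in cauda KO and WT. For each of these, both testis libraries lay far above both cauda libraries.

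The X-linked members differed in size. miR-881-3p had 12371 and 10421 RPM in testis KO and WT, against 169 and 179 RPM in cauda KO and WT, 73.4-fold and 58.4-fold higher. The 4 compared miR-465 5p arms share a seed, and that seed summed to 8341 and 8299 RPM in testis KO and WT, against 156 and 113 RPM in cauda KO and WT. miR-880-3p had 472 and 1075 RPM in testis KO and WT, against 8.01 and 3.48 RPM in cauda KO and WT, 58.9-fold higher in KO and 309-fold in WT. miR-470-5p, below the minimum, had 28.1 and 49.7 RPM in testis KO and WT, against 32.1 and 1.58 RPM in cauda KO and WT. miR-743a-3p and miR-743b-3p, with a seed of their own, summed to 3415 and 1344 RPM in testis KO and WT, against 112 and 71.7 RPM in cauda KO and WT. miR-202-3p, a gonadal miRNA, had 633 and 602 RPM in testis KO and WT, against 0.281 RPM in cauda KO and no read in cauda WT.

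Some members of the list differed between genotypes. miR-871-3p had 49636 RPM in testis KO and 929 RPM in testis WT, against 519 and 325 RPM in cauda KO and WT. Counted by its inner 15 bases it had 55486 and 14336 RPM in testis KO and WT, against 543 and 337 RPM in cauda KO and WT, a log2 ratio of 6.67 in KO and 5.41 in WT. miR-184-3p, the member not called, had 430 and 38.8 RPM in testis KO and WT, against 9.70 and 77.5 RPM in cauda KO and WT.

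The miR-200 family, a marker of epithelia that represses ZEB transcription factors, was lower in testis in all 5 members, also with TMM, beside 9.41% of all miRNAs and 23.5% with TMM. Its sum was 559 and 591 RPM in testis KO and WT, against 43102 and 4265 RPM in cauda KO and WT, where the KO sum is mostly miR-141-3p. miR-200c-3p had 29.3 RPM in testis KO and in testis WT, against 1474 and 1133 RPM in cauda KO and WT, 50.3-fold and 38.7-fold lower in testis. miR-200a-3p had 178 and 183 RPM in testis KO and WT, against 2095 and 1003 RPM in cauda KO and WT. miR-429-3p had 262 and 245 RPM in testis KO and WT, against 1630 and 1106 RPM in cauda KO and WT. miR-141-3p had 45.1 and 79.0 RPM in testis KO and WT, against 37337 and 565 RPM in cauda KO and WT, so its size is not shared by the genotypes although its direction is. Of the 5 members 3 passed the minimum in cauda alone.

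**Figure D5:**
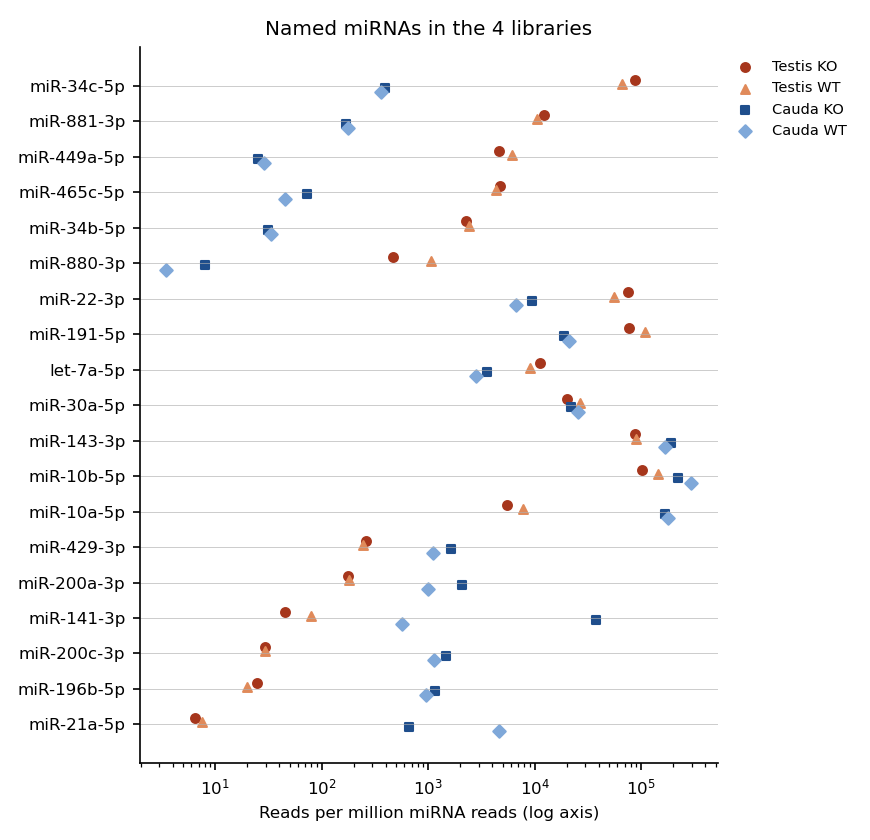
Reads per 1000000 miRNA reads (RPM), on a log axis, of 19 named miRNAs, with a point for each of the testis KO, testis WT, cauda KO and cauda WT libraries. miR-34c-5p lies at 65609 RPM or more in testis and at 393 RPM or less in cauda, miR-10a-5p the other way round, and miR-30a-5p close in all 4.

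miRNAs of the epididymal list split. miR-10a-5p, hosted in a Hox gene cluster, had 5513 and 7752 RPM in testis KO and WT, against 166940 and 180101 RPM in cauda KO and WT, 30.3-fold and 23.2-fold lower in testis. miR-10b-5p shares its seed and was the most abundant miRNA in every library, with 101019 and 143932 RPM in testis KO and WT, against 224041 and 296050 RPM in cauda KO and WT. The shared miR-10 seed thus summed to 106533 and 151684 RPM in testis KO and WT, against 390982 and 476151 RPM in cauda KO and WT. miR-196b-5p, also from a Hox cluster, had 24.6 and 19.8 RPM in testis KO and WT, against 1162 and 950 RPM in cauda KO and WT, 47.2-fold and 48.1-fold lower. Of the 6 compared, 4 were lower and 2, miR-29a-3p and miR-192-5p, higher, and those 2 were not called with TMM. Over all miRNAs 9.41% were lower and 61.8% higher, or 23.5% and 32.4% with TMM. Of the 6, 2 passed the minimum in cauda alone and 0 in testis alone, which favours a lower ratio.

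Other miRNAs were lower as well. miR-21a-5p, abundant in many tissues and in immune cells, had 6.45 and 7.49 RPM in testis KO and WT, against 660 and 4670 RPM in cauda KO and WT. By its inner 15 bases it had 162 and 97.4 RPM in testis KO and WT, against 1690 and 6390 RPM in cauda KO and WT, so the direction stayed and the size shrank. miR-221-3p had 133 and 118 RPM in testis KO and WT, against 707 and 607 RPM in cauda KO and WT. Of the erythroid list miR-486-5p, merged here with miR-3107-5p, had 1014 and 168 RPM in testis KO and WT, against 3417 and 2688 RPM in cauda KO and WT. miR-451a of that list, below the minimum, went the other way, with 56.3 and 40.2 RPM in testis KO and WT, against 15.9 and 13.8 RPM in cauda KO and WT, and miR-144-3p had 5.86 and 8.86 RPM in testis KO and WT, against 7.17 and 4.01 RPM in cauda KO and WT. Of the 16 lower, miR-411-5p and miR-19b-3p were not called by their inner 15 bases, where the log2 ratios were -0.51 in KO and -0.26 in WT for miR-411-5p and -0.10 and -0.23 for miR-19b-3p.

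The smooth muscle miRNA miR-143-3p had 88496 and 88611 RPM in testis KO and WT, against 189018 and 167258 RPM in cauda KO and WT, 2.14-fold lower in KO and 1.89-fold lower in WT and so not called. Its partner miR-145a-5p had 1159 and 1376 RPM in testis KO and WT, against 3046 and 3424 RPM in cauda KO and WT. Of the 3 compared muscle members 1 was lower, and 3 with TMM. The cardiac and skeletal members miR-1a-3p, miR-133a-3p and miR-206-3p stayed below the minimum, with at most 30.2 RPM. Of the 6 stromal members 1 was higher and 0 with TMM, and of the 4 leukocyte members 1 was higher and 1 lower, or 0 and 2 with TMM. Beside these 3 lists, 61.8% of all miRNAs were higher and 9.41% lower, or 32.4% and 23.5% with TMM.

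Of 2 large families, let-7 sat near the bulk and miR-30 below it. The miR-30 median log2 ratio was 0.07 in KO and 0.50 in WT, and -1.56 and -1.52 with TMM. Of the 9 let-7 members 7 were higher and 0 lower, but with TMM 0 were higher and 1 lower, beside 61.8% and 32.4% higher of all miRNAs, and the family median log2 ratio of 1.54 in KO and 1.65 in WT became -0.09 and -0.38. The let-7 sum was 41342 and 32711 RPM in testis KO and WT, against 17463 and 13973 RPM in cauda KO and WT. Of 5 miR-30 members 2 were higher, but with TMM 0 were higher and 3 lower, and miR-30a-5p had 20192 and 26757 RPM in testis KO and WT, against 21760 and 25457 RPM in cauda KO and WT. miR-191-5p, with 77189 and 108946 RPM in testis KO and WT, against 18706 and 21245 RPM in cauda KO and WT, was called higher by miRNA reads and not with TMM.

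The miR-17-92 family and its paralogs are known for promoting proliferation. Of 9 members 7 were higher and 1, miR-19b-3p, lower, and with TMM 5 were higher and 1 lower, beside 61.8% and 32.4% higher of all miRNAs. Of the 9, 5 passed the minimum in testis alone, so these counts support nothing by themselves. Its sum was 11548 and 11767 RPM in testis KO and WT, against 1133 and 1024 RPM in cauda KO and WT, 10.2-fold and 11.5-fold higher. miR-25-3p had 7316 and 8035 RPM in testis KO and WT, against 526 and 504 RPM in cauda KO and WT, and miR-93-5p 2805 and 2221 RPM in testis KO and WT, against 196 and 195 RPM in cauda KO and WT. miR-22-3p had 75277 and 55326 RPM in testis KO and WT, against 9506 and 6689 RPM in cauda KO and WT. It was also called higher with TMM, but not with median-of-ratios scaling. Of the 4 compared members of the imprinted Dlk1-Dio3 cluster 2 were higher and 2 lower, or 1 and 2 with TMM. Over all miRNAs 61.8% were higher and 9.41% lower, or 32.4% and 23.5% with TMM. Of the 4, 2 passed the minimum in testis alone and 2 in cauda alone, so these counts support nothing by themselves. The member miR-541-5p had 966 and 806 RPM in testis KO and WT, against 74.9 and 68.2 RPM in cauda KO and WT.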

How the data were processed

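Small RNA of testis and cauda epididymidis was sequenced from 1 pooled library per tissue and genotype. The deposited files list sequences with their read counts, and the authors had matched each one to a small RNA database entry at no more than 2 mismatches, per the file headers. The submitters' processing notes name TopHat2, Bowtie 0.12.7 and mm9 but not their steps. Minus-strand lines were reverse complemented to give the read. The same sequence can carry different entry names in different files (26.8% of those listed in 2 or more libraries, with 2.88% in more than 1 class), so outside the miRNAs each sequence was given 1 entry, which departs from the planned use of names as listed. Plus-strand miRNA counts were added up under each mature name, as reads per 1000000 (RPM) of miRNA reads, and other entries as RPM of classified reads.

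Ratios had exact conditional binomial 95% intervals and shares Clopper-Pearson intervals, computed with SciPy 1.17.1 under Python 3.11.15. Reads carry no molecular identifiers, so intervals and the floor of 3 counts cover counting error only. At these depths a count of 0 allows at most 0.350 RPM of classified reads. Per 1000000 miRNA reads, 3 reads are 1.76 and 2.04 RPM in testis KO and WT, against 0.422 and 0.316 RPM in cauda KO and WT. No p-value was computed, since each group is 1 library. The intervals and calls were tested on simulated counts. TMM factors came from edgeR 4.0.16, used for scaling alone. RefSeq tables of GRCm38.p6 gave miRNA sequences, gene starts and symbols, and 98.4% of the RefSeq accessions among mRNA and unknown entries matched a symbol.

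The named miRNAs are those with the largest shared ratio in each direction at 1000 RPM or more, the 5 most abundant of each tissue and members of marker lists, and the named entries are the largest shared ratios per class at 100 RPM or more, with miR-221-3p, piR-1330, abundant gene symbols and structural RNAs added after their values were seen. The miRNAs with the largest shared ratio also had to go the same way at other first bases, where enough such reads were listed. The comparison, the members and the lists were chosen with earlier results of these data known. Alternatives covered scaling, minimum level, first base, mismatches, fold, depth, distinct sequences and entry names. The alternatives on inner bases, sequences listed in all 4 libraries, and 1 entry or class per sequence were chosen after seeing the data. The other tissues, the age of 2 months and the transcriptome table were not used here.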

Additional observations from a re-analysis of the deposited data

Results flagged for a closer look

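Of the 170 miRNAs, 7 were called in opposite directions in KO and WT, and the difference between the genotypes was not tested, as each value rests on 1 library. For miR-16-5p the KO minus WT difference of the log2 testis over cauda ratio was 7.84, with 554 and 172 RPM in testis KO and WT, against 19.96 and 1422 RPM in cauda KO and WT. It was the only one of the 7 still called in opposite directions by its inner 15 bases, with 1052 and 665 RPM in testis KO and WT, against 82.5 and 1519 RPM in cauda KO and WT. For miR-27a-3p the difference was -12.24, with 2.35 and 53.8 RPM in testis KO and WT, against 535 and 2.53 RPM in cauda KO and WT. For miR-34a-5p it was -6.06, with 17.6 and 881 RPM in testis KO and WT, against 85.1 and 63.7 RPM in cauda KO and WT. For miR-101a-3p it was 5.002, with 63.3 and 29.98 RPM in testis KO and WT, against 30.5 and 463 RPM in cauda KO and WT. The others were miR-92a-3p at -3.04, miR-30a-3p at -3.19 and miR-92b-3p at -3.38.

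Of the entries of other classes, 5 of 5839 went in opposite directions, untested for the same reason. The KO minus WT difference of the log2 ratio was -2.91 for piR-981, -4.97 for piR-16, -5.80 for EU434913, -8.68 for AK172963 and -2.77 for AF027503. piR-981 had 113 and 73.9 RPM in testis KO and WT, against 269 and 23.5 RPM in cauda KO and WT.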

How the results depend on the processing

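No paired analysis was possible because each group is 1 library, so the groups share only 1 replicate number, and no result comes from a test. Tissues were compared within each genotype. The piRNA share was higher, and the miRNA and tRNA shares lower, in testis in both genotypes under every alternative run. As shares of all distinct sequences at equal depth the log2 testis over cauda values, KO then WT, were 1.97 and 2.16 for piRNA, -2.58 and -2.76 for miRNA and -2.44 and -2.69 for tRNA. The counts themselves were close, with 20666 and 20512 distinct miRNA sequences in testis KO and WT, against 23063 and 20001 in cauda KO and WT, and 11030 and 10798 distinct tRNA sequences in testis KO and WT, against 11164 and 10020 in cauda KO and WT. Without the 10 most abundant sequences of each class they were 5.19 and 5.75, -2.93 and -2.95, and -3.54 and -3.93. For reads without a mismatch they were 6.13 and 6.74, -1.88 and -1.80, and -5.26 and -5.47. Of reads that are not piRNA they were -0.43 and -0.28 for miRNA and -3.07 and -3.24 for tRNA. With 1 entry and class per sequence the WT values were 6.78 for piRNA and -1.75 for miRNA. Classes at least 2-fold higher numbered 4, or 2 by distinct sequences and 7 without piRNA reads. Classes at least 2-fold lower numbered 2, or 6 by distinct sequences, 4 without the abundant sequences and 1 without piRNA reads. The snRNA share reversed as a share of distinct sequences (-1.38 and -1.75), while its distinct sequences numbered 3944 and 2830 in testis KO and WT, against 1922 and 1365 in cauda KO and WT. It also reversed without the abundant sequences (-0.13 and -0.26), where the cause was not tested. Among distinct piRNA-class sequences, without thinning, the piRNA-like share was 59.7% and 60.7% in testis KO and WT, against 51.1% and 49.997% in cauda KO and WT.

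Of 105 higher and 16 lower miRNAs, TMM gave 55 and 40, median-of-ratios scaling 53 and 42, and classified reads as the base 54 and 39. Without a minimum there were 248 and 33 of 684, and at 1000 RPM 39 and 10 of 67. The directions of the 19 named miRNAs called in both genotypes turned in 0 of 454 values, but many of these values could not turn. The minimum and fold settings leave each ratio as it was. Going the same way at other first bases was part of the rule that picked most of the 19.

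For piRNA, mRNA and unknown entries, 5531 higher and 35 lower, the counts were 2227 and 133 with reads of the class as the total, 14539 and 87 at 5 RPM and 1389 and 9 at 100 RPM, with 16 lower without mismatches. For structural RNA entries, 45 higher and 27 lower, there were 115 higher at 5 RPM, 13 and 11 at 100 RPM, 20 and 14 at 4-fold, and 16 lower with reads of the class as the total. With tRNA reads as the total, 5 tRNA types were higher and 0 lower, in place of 0 and 8. At these depths a level under 0.350 RPM of classified reads cannot be told from 0.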
